A study of Mus musculus with 4 samples.

Results

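The genes described here are 10 genes of fatty acid handling in liver, grouped as targets and partners of the nuclear receptor PPAR alpha and as proteins of the lipid droplet. They are Fgf21, Angptl4, Pdk4, Plin2, Vnn1, Acot1, Creb3l3, Cidec, Ucp2 and Fabp1. The 10 genes were chosen with earlier results of these data known. They were taken by gene name from the 36161 names of the array, by a rule that sets no condition on their measured values. They are read by 11 of its 55681 non-control probes, 1 probe per gene and 2 for Cidec. RNA from whole liver of C57BL/6J mice, labelled as embryonic day 20, was hybridized to Agilent SurePrint G3 Mouse GE arrays in 1 colour, with Cy3. There was 1 array for each of 4 groups, the control females (CF), microsomic females (MF), control males (CM) and microsomic males (MM). Microsomic (M) mice were animals whose weight at birth fell below the 10th percentile, and controls (C) were littermates of ordinary weight. The labels give no treatment or altered allele for any group. The methods describe newborn C57BL/6 N mice and replicate experiments for each group. The labels differ from this in age and substrain, and the series holds 1 array per group. No source used here says if the RNA on an array came from 1 animal or a pool.

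PPAR alpha is a nuclear receptor that binds fatty acids and pairs with a retinoid X receptor such as the product of Rxra. The pair sits on a direct repeat of a short hexamer in the DNA and switches on genes that import, activate and oxidize fatty acids and make ketone bodies. Its activity in liver is best known from fasting and from the suckling period, when milk fat becomes the main fuel. Fatty acids that are not burnt are esterified to triglyceride and stored in lipid droplets, whose surface proteins control access of lipases and the growth of the droplet.

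With 1 array per group there was no spread between replicates, so a difference between a pair of arrays carries no error and no p-value. Levels are log2 signals relative to the 75th percentile of the array, so that a level of 0 is the signal at that percentile, and they are compared between arrays for the same probe only. A difference was called past 1.5-fold, a log2 value of 0.58. As a guide to precision, the SD of a difference between single spots, taken from probes printed at several spots of an array, was 0.37 (log2) for bright probes and 0.47 for dimmer probes in MF vs CF, and 0.36 and 0.49 in MM vs CM. It covers spots on an array and not animals. All 11 probes were well above background on all 4 arrays and none was saturated. The Plin2 spot carried the non-uniformity flag of the scanner software on the MF array, so Plin2 was left out of all counts and its values are given with that flag.

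The arrays differed in other cell types. Markers of hepatocytes, 12 of 12 well above background on every array, had summed log2 levels between 12.31 and 12.89. Markers of heart and skeletal muscle summed to 7.50 on CF, against 0.28 on MF, 0.87 on MM and 1.67 on CM, and 8 of 12 were lower in MF than CF. Markers of intestinal epithelium summed to 6.73 on MF, against 5.30 on MM, 3.56 on CF and 4.10 on CM, and 13 of 14 were higher in MF than CF. Macrophage markers summed to 8.31 on MF and to between 7.15 and 7.27 on the other arrays, and 9 of 12 were higher in MF than CF. Of the 10 adipocyte markers, 5 were well above background on all 4 arrays. The list summed to 5.85 on CF, 5.21 on MF, 4.74 on CM and 4.65 on MM. Plin1, Lep, Ucp1 and Cfd were not well above background on any array. Erythroid markers summed to between 10.55 and 11.46, and those of exocrine pancreas to between 3.84 and 5.48. Both female arrays stood apart in these lists, and MM vs CM uses neither of them. The male arrays differed as well. In MM vs CM, hepatocyte markers were 2 higher and 5 lower of 12 (median -0.45), with a summed level of 12.31 on MM and 12.84 on CM. Of the markers that could be compared, 2 of exocrine pancreas were higher and 6 of 9 lower, and 1 of intestinal epithelium was higher and 5 of 10 lower. The summed levels of both lists went the other way. They were 5.48 on MM and 4.78 on CM for exocrine pancreas, and 5.30 and 4.10 for intestinal epithelium. The part of these differences in the male values of the genes described here was not tested. In whole liver, fewer cells of a type and less RNA per cell cannot be told apart. The 4 arrays lay on the same slide with M and C in different columns, so position on the slide and group cannot be told apart. Xist was well above background on both female arrays only, and Ddx3y and Eif2s3y on both male arrays only.

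**Figure D1:**
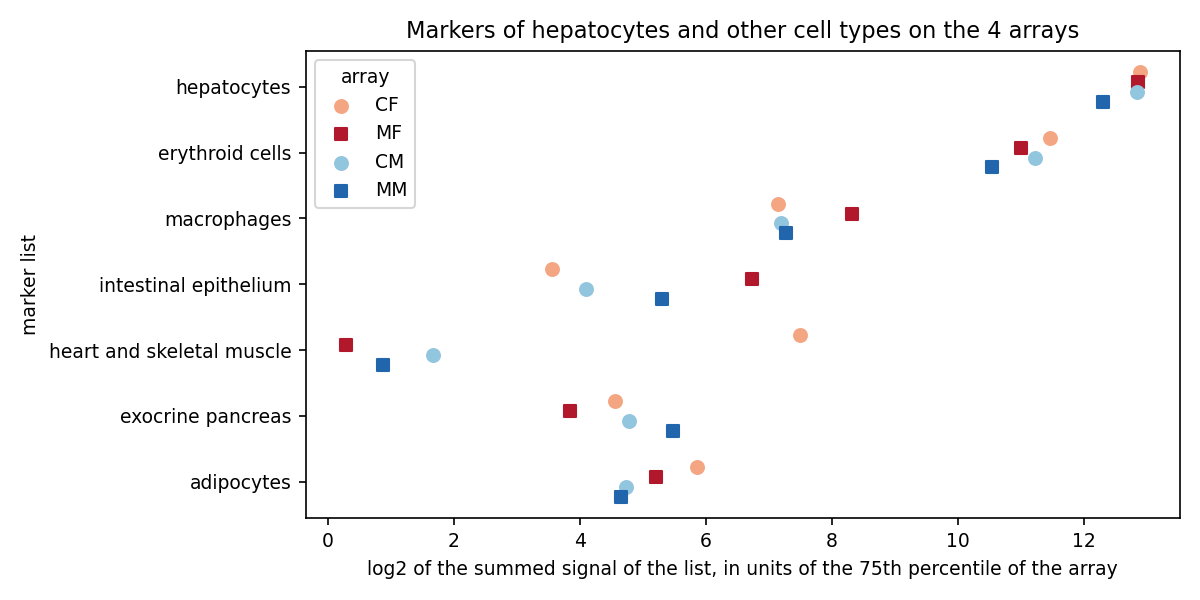
Summed signal of 7 marker lists on the 4 arrays (x axis, log2 in units of the 75th percentile of the array; y axis, list; circles, control; squares, microsomic). CF stood at 7.50 for heart and skeletal muscle, and MF at 6.73 for intestinal epithelium and 8.31 for macrophages.

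The probes differ in what they read. The following stretches are given because they hold sequence signals that set some of the probes apart from most of the array. They are parts of the 60-base probes, written 5′ to 3′. In the first, capitals mark the AU-rich pentamer ATTTA, an element of unstable messenger RNAs. In the next 3, capitals mark the polyadenylation signal AATAAA.
Fgf21: ttATTTAttacgggtATTTAtcttATTTAT
Vnn1: cgggtgtaagcaAATAAAgtgcctcttctt
Acot1: aaaagtgccaggAATAAAaaggaaccatga
Creb3l3: agactttgtgaccttcAATAAAgtattttg
The Fgf21 probe (A_52_P235347, mm9 chr7:52869305-52869364, minus strand) held ATTTA 4 times, against 7.71% of all probes with at least 1 copy, and had a GC content of 20.0% where the median probe had 43.3%. AATAAA was present in 10.1% of all probes. The Vnn1 probe lies at mm9 chr10:23624524-23624583 on the plus strand, the Acot1 probe at chr12:85358561-85358620 on the plus strand and the Creb3l3 probe at chr10:80547080-80547139 on the minus strand. GC content of the other probes ran from 35.0% to 55.0%.

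RefSeq promoter windows (GRCm38.p6) were found for 8 of the 10 genes, with 10 windows in all, and not for Angptl4 and Vnn1. They were searched on both strands for the direct repeat that PPAR alpha and RXR bind, AGGTCA followed by any 1 base and AGGTCA again. The closest matches are given because their letters are most like this repeat, with the match in capitals, and each run is 5′ to 3′ on the strand of the gene.
Fabp1: acaatcacTGACCTATGGCCTatatctgag
Creb3l3: ctgtaagtAGGGGAGAGGTCAcacagaccc
Plin2: agctttcaGGACCCCTGACCTaagtcagac
The Fabp1 match (chr6:71199804-71199833) had 1 mismatch and lay at -67 to -55 from the transcription start, on the opposite strand. The Creb3l3 match (chr10:81092779-81092808, -209 to -197) and the Plin2 match (chr4:86670263-86670292, -225 to -213, opposite strand) had 2 mismatches. Among 27025 genes with a window, 0.644% had a match with at most 1 mismatch and 4.40% with at most 2. A match is a description of the letters and not a binding site.

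Of the 9 genes counted, 4 passed 1.5-fold in MF vs CF, where 40.9% of 25536 genes did. Angptl4 and Ucp2 were higher in MF (19.9% of all genes were), and Pdk4 and Acot1 were lower (21.0%). In MM vs CM, 7 of the 9 passed, against 40.8% of 26313 genes. Vnn1, Acot1 and Fabp1 were higher in MM (17.7% of all genes), and Fgf21, Angptl4, Pdk4 and Cidec were lower (23.1%). The median difference of the 9 genes was -0.26 in MF vs CF and -0.38 in MM vs CM, beside medians of -0.04 and 0 over all genes. Pdk4 was the 1 gene of the 9 lower past 1.5-fold in both sexes, as were 3.80% of all genes. Cidec, counted by its brighter probe, also did so by the mean over its probes (-1.01 and -0.72). With the GC trend removed its brighter probe did so as well (-0.60 and -0.70). Angptl4 and Acot1, 2 of the 9, passed 1.5-fold in opposite directions in the sexes, as did 9.85% of all genes, and none of the 9 was higher in both, as 3.18% were. The sign was opposite for 6 of the 9, as for 50.6% of genes well above background on all 4 arrays. Most of the 9 are bright, and among the 9181 genes above the 75th percentile on all 4 arrays 36.5% passed 1.5-fold in MF vs CF and 24.8% in MM vs CM. With the deposited values left unscaled, the median over all genes was 0.34 in MF vs CF and 0.50 in MM vs CM, and the members split into 3 higher and 1 lower, and 4 higher and 1 lower. The female split was 1 higher and 4 lower with quantile normalization, with or without normexp correction, and 2 higher and 4 lower with the trend of signal and position or of GC content removed. Over all genes that passed, the share that was higher was 48.5% for females and 79.7% unscaled, and in MM vs CM it was 43.4%, 78.4% unscaled, 61.0% with arrays centred on the median and 32.4% with no filter on dim probes.

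**Figure D2:**
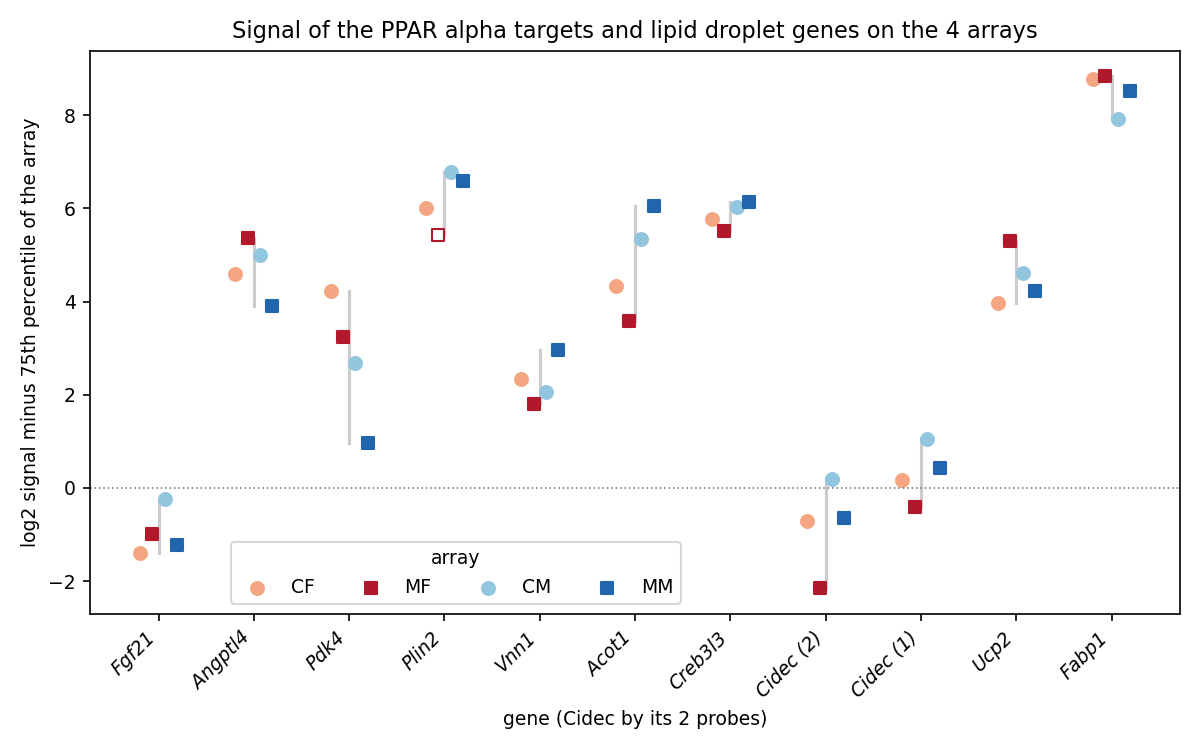
Level of each gene on the 4 arrays (y axis, log2 signal minus the 75th percentile of the array; circles, control; squares, microsomic; grey lines, the range over the 4 arrays; dotted line, the 75th percentile; open square, the flagged Plin2 spot on MF). Pdk4 had the widest range, from 0.97 on MM to 4.23 on CF, and Creb3l3 the narrowest.

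The receptor pair itself differed little. Ppara was at 3.40 on CF, 3.51 on MF, 3.52 on CM and 3.61 on MM, differences of 0.11 in MF vs CF and 0.09 in MM vs CM, both under the SD of a spot. Rxra, its partner, differed by 0.36 in MF vs CF and by -0.33 in MM vs CM, also under that SD. These small differences depend on the scaling. Unscaled, the median over all genes was 0.34 in MF vs CF and 0.50 in MM vs CM. Creb3l3 encodes a liver transcription factor held in the endoplasmic reticulum, which acts with PPAR alpha on Fgf21. Its level was 5.78 on CF, 5.52 on MF, 6.02 on CM and 6.15 on MM. The difference was -0.26 in MF vs CF and 0.12 in MM vs CM, so the microsomic arrays lay on either side of the controls by less than the SD of a spot. In MF vs CF it passed 1.5-fold with quantile normalization (-0.83), with normexp correction before it (-0.60) and with the trend of signal and position removed (-0.87), and in MM vs CM with the unscaled values (0.68).

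Fgf21 and Angptl4 encode secreted proteins. Fgf21 is a hormone that liver releases in fasting and suckling. Its level was -1.39 on CF, -0.98 on MF, -0.24 on CM and -1.22 on MM, and CM stood above the other arrays, which lay close together. Fgf21 was 1.97-fold lower in MM than CM (-0.98), and the difference in MF vs CF was 0.41, under the SD of a dimmer spot. With normexp correction and quantile normalization the male difference shrank to -0.07, and unscaled it was -0.42. In MF vs CF the unscaled values passed 1.5-fold, at 0.82.

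Angptl4 is an inhibitor of lipoprotein lipase, the enzyme that frees fatty acids from circulating triglyceride. Its probe (A_51_P338443) lies at mm9 chr17:33911880-33911939. Its level was 4.60 on CF, 5.37 on MF, 5.01 on CM and 3.91 on MM, so the highest and the lowest array were both microsomic. It was 1.71-fold higher in MF than CF (0.78) and 2.14-fold lower in MM than CM (-1.10). The female rise was 0.32 with quantile normalization and -0.02 with normexp correction before it, and the male difference was -0.54 unscaled.

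Pdk4 and Ucp2 act at the choice of mitochondrial fuel. Pdk4 encodes the kinase that shuts pyruvate dehydrogenase and so spares glucose when fatty acids are burnt. Its probe (A_51_P350453) lies at mm9 chr6:5433441-5433500. The level was 4.23 on CF, 3.23 on MF, 2.69 on CM and 0.97 on MM, and in each sex the microsomic array was below its control. It was 1.99-fold lower in MF than CF (-0.996) and 3.28-fold lower in MM than CM (-1.71). Over the 10 alternatives the differences ran from -1.29 to -0.59 and from -1.95 to -1.04, past 1.5-fold in every one of them. Of these alternatives, the filters, the flagged spots and the mean over probes could not change the values of Pdk4, Ucp2, Fabp1, Acot1 or Vnn1. Pdk4 is also known from heart and skeletal muscle, whose markers were high on CF, and the part of that RNA in the female difference was not tested. Between the male arrays, on which those markers summed to 0.87 and 1.67, 6 of the 12 muscle markers were lower in MM and 2 were higher.

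Ucp2 encodes a carrier of the inner mitochondrial membrane. Its probe (A_51_P297105) lies at mm9 chr7:107647809-107647868. Its level was 3.97 on CF, 5.31 on MF, 4.61 on CM and 4.24 on MM, so MF stood above the other arrays. It was 2.53-fold higher in MF than CF (1.34), and over the 10 alternatives this difference lay between 0.88 and 1.74. In MM vs CM the difference was -0.38, about the SD of a spot, and it ran from -0.52 to 0.18 over the alternatives. Ucp2 is also known from macrophages, and MF was the array on which the macrophage markers summed highest (8.31), with 9 of 12 higher than in CF and none lower. The part of these cells in the Ucp2 difference was not tested.

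**Figure D3:**
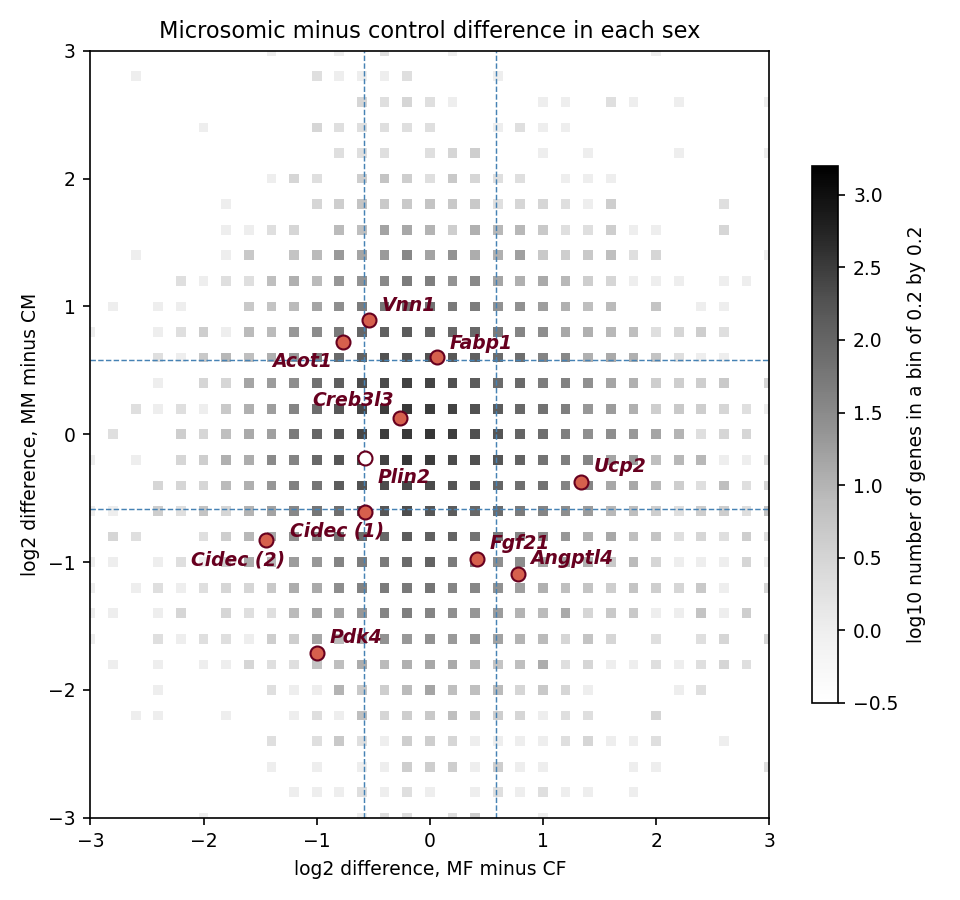
Microsomic minus control difference of each gene in females (x axis, MF minus CF, log2) and males (y axis, MM minus CM, log2), with Cidec by each of its 2 probes and Plin2, flagged on MF, as an open circle. Grey squares count 19298 genes, those well above background on each array, and dashed lines mark 1.5-fold. Pdk4 and the second Cidec probe lay past the lines on the lower left, Angptl4 on the lower right and Acot1 on the upper left.

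Fabp1, Acot1 and Vnn1 handle fatty acids and their coenzyme A esters. Fabp1 encodes the abundant fatty acid binding protein of the liver cell, which also brings ligands to PPAR alpha. Its level was 8.77 on CF, 8.84 on MF, 7.91 on CM and 8.52 on MM, and CM stood below the other arrays. It was 1.52-fold higher in MM than CM (0.60), just past the threshold, and differed by 0.06 in MF vs CF. The male difference ran from 0.57 to 1.16 over the alternatives, and the female difference changed to -0.73 with quantile normalization and -0.85 with the trend of signal and position removed. Fabp1 is a gene of the intestinal epithelium as well, and the markers of that tissue, high on MF, were not tested for a part in its level.

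Acot1 encodes a cytosolic thioesterase that splits long-chain acyl-coenzyme A into free fatty acid. Its level was 4.34 on CF, 3.57 on MF, 5.33 on CM and 6.06 on MM, so both male arrays were above both female arrays. It was 1.70-fold lower in MF than CF (-0.77) and 1.65-fold higher in MM than CM (0.73). The male difference stayed past 1.5-fold in the 10 alternatives (0.66 to 1.28), and the female difference was -0.37 unscaled. Acot1 has a near-identical neighbour, Acot2, and whether the probe also binds RNA of Acot2 was not tested.

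Vnn1 encodes vanin, a pantetheinase that returns vitamin B5 from coenzyme A breakdown and is a sensitive PPAR alpha target in liver. Its level was 2.34 on CF, 1.80 on MF, 2.06 on CM and 2.96 on MM, and MM stood above the other arrays. It was 1.86-fold higher in MM than CM (0.90), past 1.5-fold in all 10 alternatives (0.73 to 1.66). In MF vs CF the difference was -0.54, below the threshold. It passed with normexp correction (-0.90) and with the GC trend removed (-0.60).

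Plin2 and Cidec are proteins of the droplet surface. Plin2, or adipophilin, coats the droplets of liver cells and is used as a measure of stored fat. Its probe (A_55_P1999648) lies at mm9 chr4:86302847-86302906. Its level was 6.00 on CF, 5.43 on the flagged MF spot, 6.78 on CM and 6.59 on MM. The males lay above the females, and the microsomic arrays slightly below their controls, by -0.57 in MF vs CF with the flagged spot and by -0.19 in MM vs CM, under the SD of a spot. Under the other scalings the female difference ran from -1.40 to -0.17 and the male difference from -0.36 to 0.37.

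Cidec encodes a protein that joins droplets into larger ones. Its brighter probe (A_55_P1969131, mm9 chr6:113374630-113374689) read 0.17 on CF, -0.41 on MF, 1.05 on CM and 0.44 on MM. The other probe (A_55_P1969128, chr6:113378116-113378175) read -0.70 on CF, -2.15 on MF, 0.19 on CM and -0.64 on MM. Both probes placed MF lowest and CM highest. The brighter probe differed by -0.58 in MF vs CF, 1.49-fold and just short of the threshold, and by -0.61 in MM vs CM, 1.52-fold and just past it. The other probe was 2.72-fold lower in MF than CF (-1.44) and 1.77-fold lower in MM than CM (-0.83). Both probes thus gave the same direction in both sexes and unlike sizes in females. On the brighter probe the female difference was 0.14 with normexp correction and the male difference -0.05 unscaled and -0.37 with median centring. Cidec is also expressed in adipocytes, whose 10 markers summed to 5.85 on CF, 5.21 on MF, 4.74 on CM and 4.65 on MM. Of the 6 that could be compared, 2 were lower in MF vs CF, 1 was lower in MM vs CM and none was higher in either, and their part in the Cidec difference was not tested.

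The other genes of the pathway were taken from lists written with earlier results of these data known. Of 35 other PPAR alpha target genes, 33 had a probe without a flag and all 33 were well above background on the 4 arrays. In MF vs CF, 3 were higher, 15 lower and 15 within 1.5-fold, with a median of -0.41. In MM vs CM, 12 were higher, 1 lower and 20 within, with a median of 0.39. Over all genes, 19.9% were higher and 21.0% lower in MF vs CF (median -0.04), and 17.7% and 23.1% in MM vs CM (median 0). Over the alternatives the female median of the 33 targets ran from -0.83 to -0.01 and the male median from 0.34 to 0.95. The number lower in females ran from 9 to 21 and the number higher in males from 12 to 25. The female and male counts thus leaned in opposite directions, and no test of that difference could be made with 1 array per group. Markers of heart and skeletal muscle summed to 7.50 on CF and 0.28 on MF, and their part in the female counts was not tested.

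Among these targets, Cpt1a, the gate of long-chain fatty acids into mitochondria, was at 5.53 on CF, 3.77 on MF, 5.04 on CM and 5.43 on MM, which put MF apart from the rest. It was 3.39-fold lower in MF than CF and differed by 0.39 in MM vs CM. Acaa1b, a peroxisomal thiolase of beta-oxidation, was higher in both sexes, by 1.69 and 1.24. Retsat, a retinol saturase, differed by -0.20 in MF vs CF and was 3.04-fold higher in MM than CM. Of the genes that were lowest on the mean of both sexes, Slc22a5, the carnitine carrier, differed by -1.42 and -0.30, and Acot12, an acetyl-coenzyme A hydrolase, by -1.25 and -0.51. Fabp3, the fatty acid binding protein of heart, differed by -6.60 in MF vs CF and by -1.03 in MM vs CM. Its level of 3.82 on CF stood beside the muscle markers that were high on that array, and their part in it was not tested.

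Of the 13 genes of PPAR alpha and its partners, 3 were higher and 2 lower in MF vs CF, and 2 higher and 3 lower in MM vs CM. Either direction together, 40.9% of all genes passed 1.5-fold in MF vs CF and 40.8% in MM vs CM. The medians of the 13 genes were 0.02 and -0.33, and their sign changed between alternatives. Ncoa1, a coactivator of nuclear receptors, was higher in both sexes, by 1.26 and 0.62. Esrra, a receptor of mitochondrial genes, differed by -0.42 and -1.17, and its coactivator Ppargc1a by 0.02 and -0.80. Med1, a subunit of the mediator complex, differed by 0.90 and -0.49, Ppard, a sister receptor, by 0.72 and -0.34, and Nr1h4, the bile acid receptor, by -0.71 and 0.05.

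Of 31 other lipid droplet and triglyceride genes, 30 could be compared. In MF vs CF 9 were higher and 8 lower, and in MM vs CM 7 were higher and 4 lower, with medians of 0.21 and 0.17. Of all genes, 19.9% were higher and 21.0% lower in MF vs CF, and 17.7% and 23.1% in MM vs CM. The female median of the droplet genes was -0.24 with normexp correction. Unscaled, 16 were higher and 7 lower in females and 18 higher and 3 lower in males, and with median centring 13 were higher and 4 lower in males. G0s2, an inhibitor of the droplet lipase, was at 3.66 on CF, 1.20 on MF, 5.004 on CM and 2.92 on MM, 5.49-fold lower in MF than CF and 4.23-fold lower in MM than CM. Pnpla2, the lipase that G0s2 holds back, differed by -0.51 and 0.36, within 1.5-fold in both sexes. Abhd5, the activator of that lipase, was higher in both, by 1.08 and 0.77, as was Faf2, a droplet protein of protein turnover, by 0.91 and 0.72. Plin5, the perilipin of oxidative tissues, differed by -0.86 and -0.45. Markers of heart and skeletal muscle were high on CF, and their part in the female Plin5 difference was not tested. Fitm2, which is needed for droplet budding, differed by -1.35 and -0.49, and Acsl4, an acyl-coenzyme A synthetase, by -1.09 and -0.51. Gpat2, an acyltransferase, differed by 1.41 and 0.14.

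**Figure D4:**
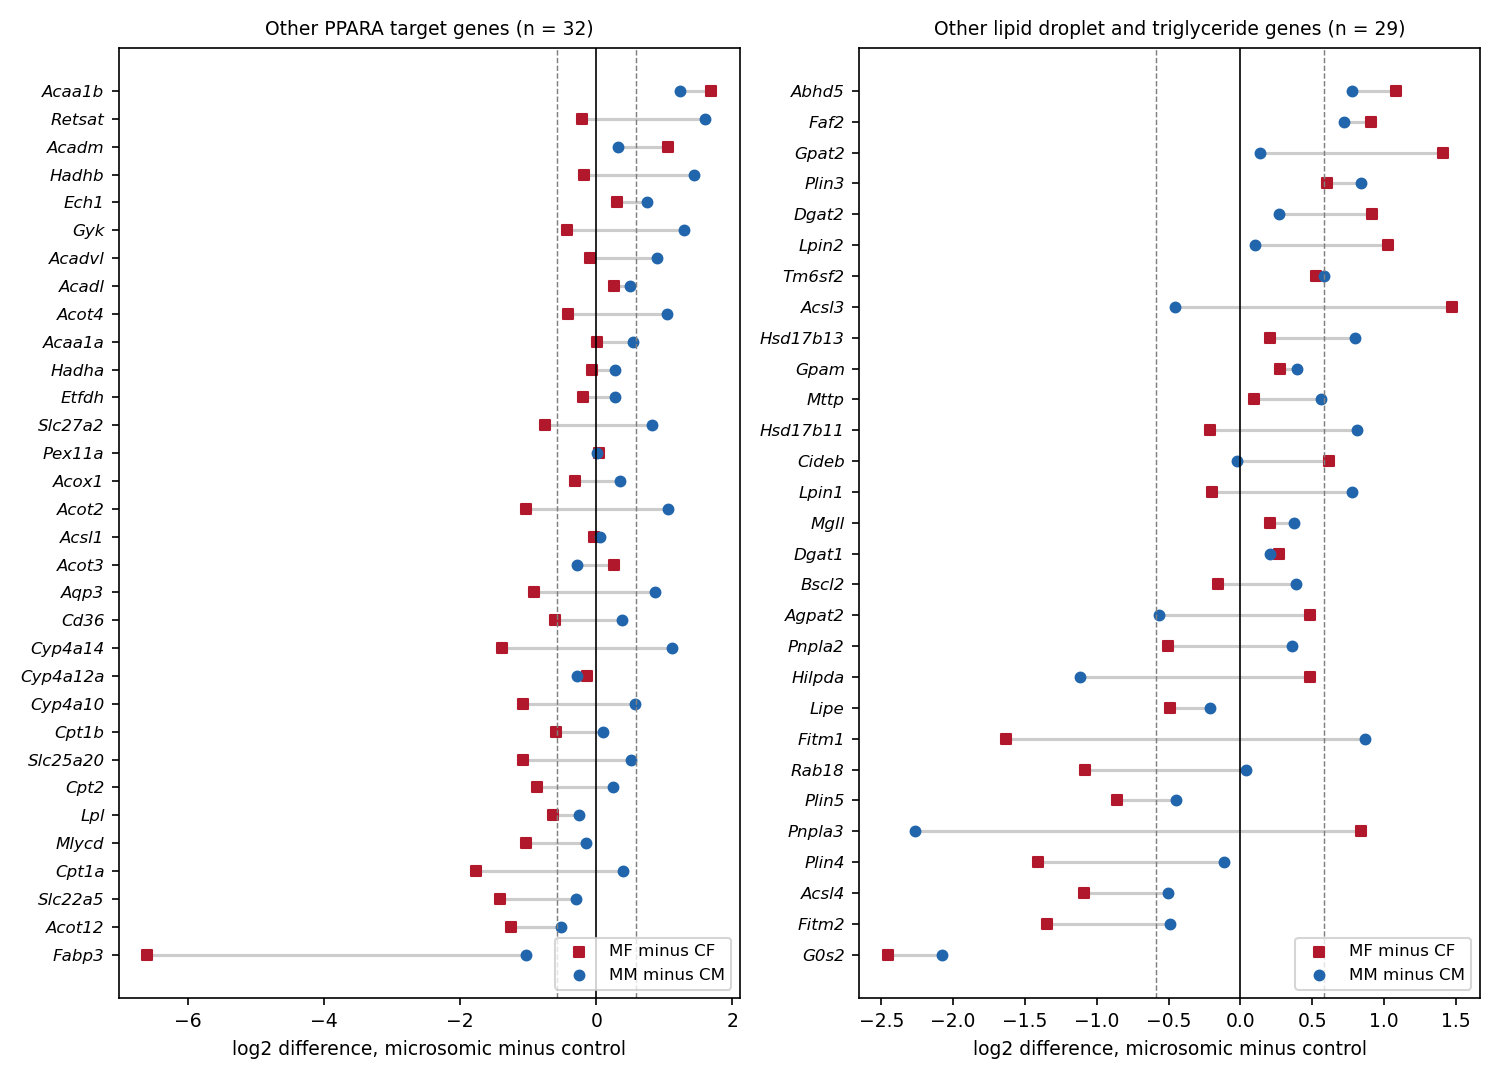
Microsomic minus control difference (x axis, log2) of the other PPAR alpha target genes (left, all but 1 of the 33 genes) and of the other lipid droplet and triglyceride genes well above background on all 4 arrays (right, 29 genes), for females (squares) and males (circles). Dashed lines mark 1.5-fold. Most female target values lay left of the male values, and G0s2 lay at -2.46 and -2.08.

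The sexes were also compared within each condition, with the same 4 arrays. In CM vs CF, 6 of the 9 genes passed 1.5-fold, against 46.3% of all genes. Fgf21, Acot1, Cidec and Ucp2 were higher in males (26.6% of all genes), and Pdk4 and Fabp1 were lower (19.7%). In MM vs MF, 7 of the 9 passed, against 49.4%. Vnn1, Acot1, Creb3l3 and Cidec were higher in males (28.9%), and Angptl4, Pdk4 and Ucp2 were lower (20.5%). Acot1 and Cidec were higher in males past 1.5-fold in both comparisons, as were 9.68% of all genes, and Pdk4 was lower in both, as were 5.27%. Among genes above the 75th percentile on all 4 arrays, 29.3% passed between the control arrays and 44.7% between the microsomic ones. Acot1 was 1.99-fold higher in CM than CF and 5.60-fold higher in MM than MF. Pdk4 was 2.91-fold and 4.79-fold lower in males. Of the heart and skeletal muscle markers, 9 of 12 were lower and 2 higher in CM vs CF, and 2 of 11 lower and 6 higher in MM vs MF. Their part in the Pdk4 differences was not tested. Cidec was 1.84-fold and 1.80-fold higher in males on its brighter probe, and 1.85-fold and 2.84-fold on the other. Angptl4 was 2.76-fold lower in MM than MF, and the difference in CM vs CF was 0.41. In MM vs MF, 6 of 12 macrophage markers were lower and 2 higher, and their part in the Ucp2 difference was not tested. Vnn1 was 2.23-fold higher in MM than MF, and differed by -0.28 in CM vs CF. Of the 33 other targets, 21 were higher and 1 lower in MM vs MF (median 0.87), and 6 were higher and 6 lower in CM vs CF. With arrays centred on the median, 1 was higher and 13 lower in CM vs CF (median -0.27). Over all genes that passed, the share higher in males was 57.5% for the control arrays and 58.4% for the microsomic ones, and with arrays centred on the median it was 30.6% and 38.3%. With that centring the 9 genes split into 1 higher and 3 lower in control males, and 2 higher and 4 lower in microsomic males.

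A change common to both sexes was fitted with limma over all 4 arrays, with sex as a term and 1 residual degree of freedom. That degree of freedom holds the disagreement between the sexes in the M minus C difference. To it limma added 6.4 prior degrees of freedom, taken from all genes tested. The SE and p of this fit therefore measure no spread between animals of a group. None of 19298 genes had a Benjamini-Hochberg adjusted p under 0.05 (0 genes, smallest adjusted p 0.966), and 851, or 4.41%, had an unadjusted p under 0.05. The adjusted p of the 9 genes lay between 0.995 and 0.999. Pdk4 had the lowest unadjusted p in limma, 0.0153 (adjusted p 0.995), for a difference of -1.35 with SE 0.43, and was lower in both pairs. Cidec differed by -0.59 with SE 0.41. With the flagged spot kept, the adjusted p of Plin2 in limma was 0.994.

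**Figure D5:**
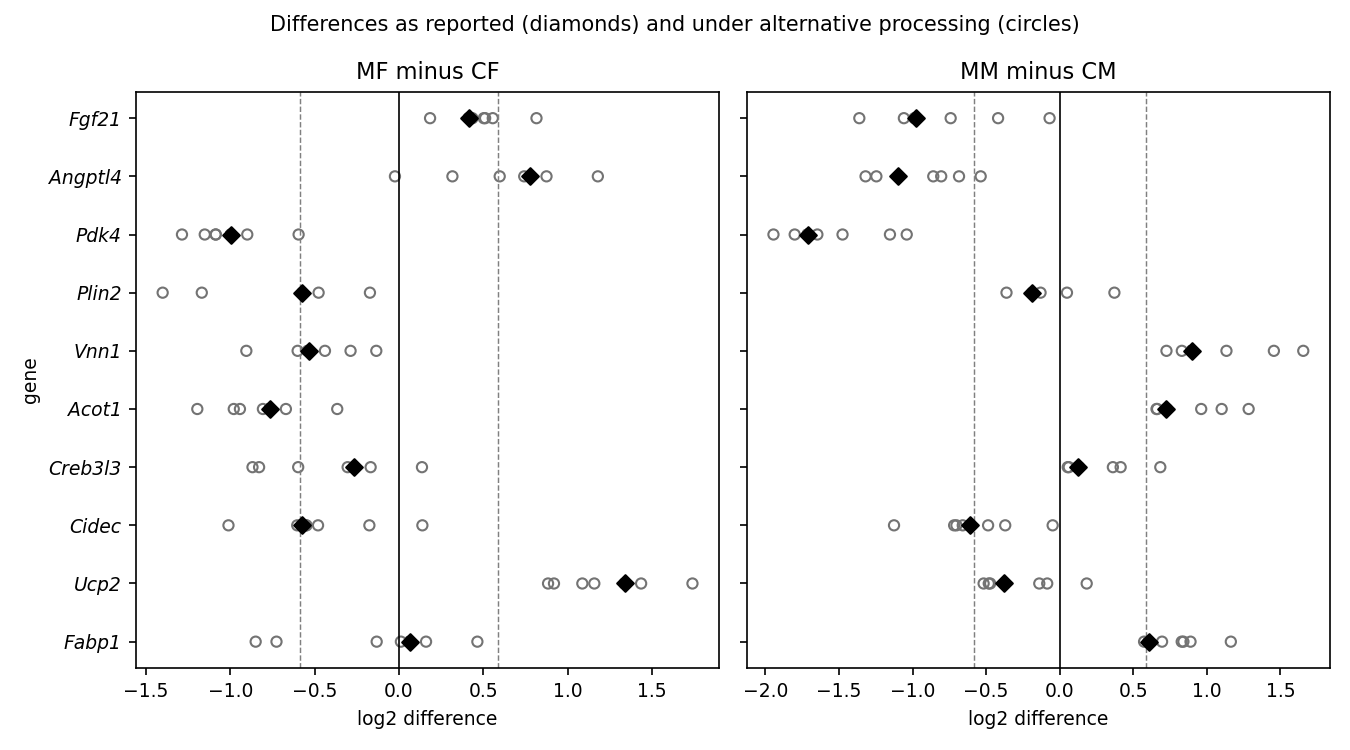
Differences of the 10 genes in MF minus CF and MM minus CM (x axis, log2) as reported (diamonds) and under alternative processing (circles). Dashed lines mark 1.5-fold. The Pdk4 values lay past the line on the left in both panels and the Ucp2 values past the line on the right in females, while Angptl4 in females reached -0.02.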

How the data were processed

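Liver RNA of 4 groups was measured, 1 array each. The authors read the scans in Agilent Feature Extraction 10.7.3.1, which subtracted background and a spatial trend. The deposited values are the linear intensity it gave for each spot, with no step to bring the arrays to a common scale, and the deposited series table was the same in all 62976 spots. Probe names, positions (mm9) and sequences are those of the deposited annotation. Software errors were 10.0% to 10.2% of the signal for these probes. The number of arrays limits the precision of every value.

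The 75th percentile over non-control spots was subtracted from each log2 signal. The 1754 spots that the software marked as outliers on 1 or more arrays were then dropped. Exceptions were the values given for Plin2 and the alternative that kept flagged spots. Spots of a probe were averaged and a gene was its brightest probe, which left 35577 genes. A gene was compared where well above background on at least 1 array of the pair. Where the other array was not, the difference was taken against its signal or a limit, whichever was higher, and is approximate. The limit was the lowest level well above background on that array. limma 3.58.1 (R 4.3.3) was fitted with Benjamini-Hochberg adjustment and tested on simulated data. Gene lists were the members, PPAR alpha and partners, other targets, droplet genes, and markers of hepatocytes, erythroid cells, macrophages, intestinal epithelium, adipocytes, heart and skeletal muscle and exocrine pancreas. Of each pathway list the 3 highest and 3 lowest genes by mean difference were named, with Ppara, Rxra, Plin5, Pnpla2 and Cpt1a. Of these, 1 gene is not reported here. Members and lists were chosen with earlier results of these data known. The marker genes and those in the closing section outside this rule were named after their values were seen. Alternatives were median centring, quantile normalization, normexp (offset 50) with quantile normalization, no scaling, other filters, the mean over probes, flagged spots kept, trends of signal, position or GC removed, a 2-fold threshold, and for limma no sex term, an intensity trend and the methods' threshold. The scalings of Plin2 with its flagged spot kept, and the alternatives for the lists, were added after seeing the data.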

Additional observations from a re-analysis of the deposited data

Results flagged for a closer look

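The difference between microsomic and control arrays had opposite signs, past 1.5-fold, in the sexes for 2 of the genes. For Angptl4 the MF minus CF difference exceeded the MM minus CM difference by 1.87 (log2), with 0.78 in females and -1.10 in males. For Acot1 the MF minus CF difference was below the MM minus CM difference, by -1.49, with -0.77 in females and 0.73 in males. The difference between the sexes was not tested in either gene, since each group holds 1 array.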

How the results depend on the processing

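Of the differences of the 10 genes under the alternatives, 317 differed from the reported value by less than the SD of a spot and 62 by more. The 317 include alternatives that could not move a value. The filters and the flagged spots left these genes unchanged, and the mean over probes could change only Cidec. Of 40 differences, 10 changed sign under at least 1 alternative. Of these, 1 was past 1.5-fold as reported, the female difference of Angptl4, which was -0.0237 after normexp correction with quantile normalization. The other changes of sign were in MF vs CF for Creb3l3, Cidec (brighter probe) and Fabp1, in MM vs CM for Plin2 and Ucp2, in CM vs CF for Angptl4, Vnn1 and Creb3l3, and in MM vs MF for Fabp1. With a 2-fold threshold the counts were 1 gene in MF vs CF (Ucp2), 2 in MM vs CM (Angptl4 and Pdk4), 2 in CM vs CF (Fgf21 and Pdk4) and 5 in MM vs MF. The share of all genes past 2-fold was not computed, so these counts cannot be set against it. limma called 9 of 19298 genes on the unscaled values and 163 at the methods' threshold, and none of the 9 genes counted in either. The probes of Fgf21 and Rxra lay below the 75th percentile on all 4 arrays, where repeated spots varied more. No paired analysis was possible because each group has 1 array and the labels give no replicate number.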

Other observations

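Genes related to those above were looked at after their values were seen. Acot2 and Acot4, thioesterases of the same gene cluster as Acot1, differed by -1.03 and -0.41 in MF vs CF and by 1.06 and 1.04 in MM vs CM. Acot3, the other neighbour, differed by 0.27 and -0.29 between microsomic and control arrays, and was 8.70-fold higher in CM than CF and 5.91-fold higher in MM than MF. Cyp4a14, an omega-hydroxylase of fatty acids, was at 7.03 on CF, 5.65 on MF, 6.65 on CM and 7.76 on MM, 2.61-fold lower in MF than CF and 2.16-fold higher in MM than CM. Cyp4a10 differed by -1.08 and 0.57, and Slc27a2, a fatty acid transporter, by -0.76 and 0.82.

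Among droplet genes, Hilpda, an inhibitor of the droplet lipase, differed by 0.48 in MF vs CF and was 2.17-fold lower in MM than CM. Pnpla3, a lipase relative, differed by 0.84 and -2.27. Plin3, a perilipin of small droplets, was higher in both sexes, by 0.61 and 0.84. Cidea, a relative of Cidec, was 3.81-fold lower in MF than CF. In males it was well above background on CM and not on MM, and came out 95.6-fold lower in MM. That fold is approximate, since the MM value lay near the floor of 1 array. The limit there was -5.83, the lowest level well above background on MM.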
